A study of Mus musculus with 16 samples.

Results

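The genes described here are 10 components of clathrin-mediated endocytosis, found by their exact gene names among the 48709 genes of the deposited count table. They are the dynamins Dnm1, Dnm2 and Dnm3, the clathrin chains Clta, Cltb and Cltc, the membrane-shaping and uncoating proteins Amph, Synj1 and Sh3gl2, and the adaptor subunit Ap2a1. All 10 passed the filter on low counts in every comparison, and the smallest count of any of them in a library was 319. RNA was sequenced from synaptosomes (SYN), pinched-off and resealed nerve endings isolated from the cerebral cortex of C57BL/6 mice. Mice were 3 weeks, 5 months or 19 months old, with 4 libraries at each age, and there were 4 libraries of the unfractionated total homogenate (TH) at 5 months. All 16 libraries were made from total RNA depleted of 18S and 28S ribosomal RNA, and no genotype or treatment other than age is labelled. The labels do not say which animals gave which library, so the p-values measure the spread between libraries. The comparisons were 5 months SYN against 5 months TH, and the later against the earlier age for each pair of SYN ages.

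Clathrin-mediated endocytosis recovers synaptic vesicle membrane after transmitter release. The AP2 adaptor gathers cargo at the plasma membrane and recruits clathrin triskelia, each built of heavy chains with bound light chains, while amphiphysin and endophilin A bend the membrane and bring in dynamin, the GTPase that severs the neck of the pit. Synaptojanin 1 then dephosphorylates phosphoinositides so that the coat can be shed.

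Libraries held 10.6 to 21.7 megacounts. Mitochondrial ribosomal RNA made up 32.9% to 52.3% of counts in SYN libraries of 5 and 19 months, against 42.6% to 51.7% at 3 weeks and 17.6% to 22.0% in TH. A pair of libraries stood apart. They were 19 months SYN replicate 1, with the 52.3%, and 5 months SYN replicate 4, where the nuclear RNA Malat1 reached 4817 CPM. Here CPM are counts per 1 megacount of library size times a TMM scaling factor. This factor was 0.693 to 1.02 in SYN libraries and 1.55 to 1.63 in TH libraries. The summed level of 6 neuronal markers was 6073 to 7314.5 CPM in 5 months SYN and 3163 to 3614 CPM in 5 months TH. Of these markers 3 were higher, 1 lower and 2 not called, and Camk2a (4673 CPM in SYN and 1345 CPM in TH on average) made up most of the SYN sum, while Snap25 was the lower one (1083 and 1339 CPM). Against TH, 5 months SYN had higher levels of 6 of 6 astrocyte markers (sums of 1026 to 1239.7 and 455 to 483 CPM), 6 of 6 microglial markers (sums of 104 to 121 and 49.6 to 54.03 CPM) and 5 of 6 oligodendrocyte markers (sums of 2216 to 2749.6 and 1458 to 1609 CPM), and lower levels of 6 of 6 endothelial markers (sums of 7.63 to 35.7 and 124 to 195 CPM). Of all these markers, only Tek was at a count of 0, in 1 library of 5 months SYN. With age, 6 of 6 oligodendrocyte markers were lower at both 5 months and 19 months than at 3 weeks, where their sum was 7121 to 9877 CPM. Their sum at 19 months was 2199 to 3085 CPM. These marker levels moved with the comparisons below, and their part in the members' differences was not tested. In bulk fractions, fewer nerve endings of a type and less RNA per ending cannot be told apart.

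Between 5 months SYN and 5 months TH, 6 of the 10 members differed at an adjusted p under 0.05, against 50.1% of the 17374 genes tested, which is near the members' share. Clta and Cltb were higher in SYN, while Dnm3, Cltc, Synj1 and Sh3gl2 were lower (edgeR quasi-likelihood test, Benjamini-Hochberg adjustment, as for all adjusted p below unless the authors' tables are named). The median log2 fold change of the members was -0.16, beside -0.05 for all genes tested. Over all genes, 24.5% were higher and 25.6% lower. Upper-quartile scaling moved the median of all genes to -0.19 and the split of calls to 37.9% higher, against 48.8% higher in the TMM-scaled fit. Under it Cltb was no longer called (adjusted p = 0.133), and Dnm1 and Dnm2 were called lower.

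Between 5 months SYN and 3 weeks SYN, 4 of the 10 members were lower and 0 higher, against 24.6% of 15344 genes called in either direction and 11.3% called lower. The lower members were Dnm1, Cltc, Sh3gl2 and Ap2a1, and the members' median was -0.26 on the log2 scale, beside 0.00 for all genes. Between 19 months SYN and 3 weeks SYN, 6 members were lower and 0 higher, against 19.4% of genes called and 9.44% called lower. Those 6 were Dnm1, Dnm2, Cltc, Amph, Sh3gl2 and Ap2a1, with a members' median of -0.35. Between 19 months SYN and 5 months SYN, 0 of 10 members were called by edgeR, against 0.3% of genes (0.13% higher and 0.169% lower). The DESeq2 test called 0 members and 312 of 15344 genes. At an unadjusted p under 0.05 there were 2 members, Cltb and Ap2a1, but the share of all genes under that threshold was not counted. The age comparisons share libraries, so their values stand side by side and do not support one another.

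**Figure D1:**
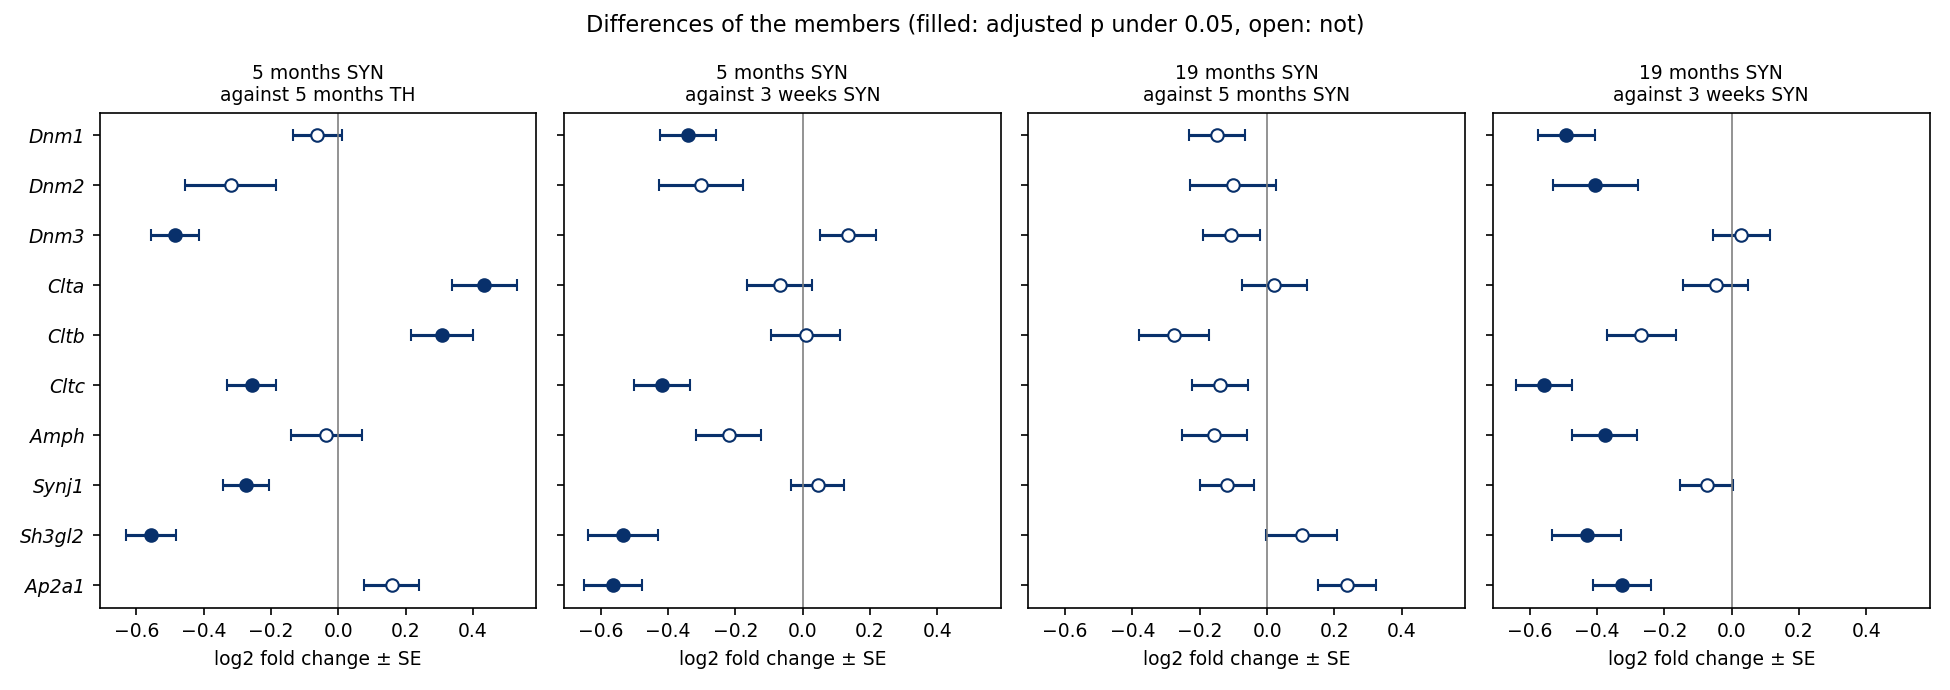
Log2 fold change ± SE of each member (rows) in the 4 comparisons (panels). Filled points passed an adjusted p under 0.05. Cltc and Sh3gl2 are filled and left of 0 in 3 panels, and no point is filled in the panel of 19 months SYN against 5 months SYN.

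Per kilobase of merged exons, Dnm1 had the highest level of the 10 in 5 months SYN, 75.9 ± 5.05 CPM per kb (SD, n = 4), and Clta followed with 64.8 ± 2.08. Cltc (35.997 ± 1.96) and Synj1 (34.35 ± 1.75) overlapped in their libraries. So did Amph (18.6 ± 2.58), Cltb (18.1 ± 0.538) and Ap2a1 (17.6 ± 0.823). Sh3gl2 stood at 8.78 ± 0.123, Dnm2 at 6.21 ± 1.05 and Dnm3 at 4.31 ± 0.191 CPM per kb, without overlap between these neighbours. The deposited length counts every annotated exon, 24452 bases for Dnm3 and 5249 for Dnm1, and a gene read mostly as a shorter transcript is understated. For Amph the deposited length, 6082 bases, exceeds the 4528 bases of the gene annotation used here.

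Dnm1, the neuronal dynamin (chr2:32308471-32353338, minus strand, GRCm38), fell with age. It had 489, 530, 510 and 513 CPM at 3 weeks SYN, 436, 375, 396 and 387 CPM at 5 months SYN and 360, 336, 392 and 360 CPM at 19 months SYN. Every library of the later ages lay under every library of 3 weeks, while the later ages overlapped. The log2 fold change was -0.34 ± 0.08 (SE, as for each ± after a fold change below) at 5 months against 3 weeks (adjusted p = 0.00344). It was -0.49 ± 0.08 at 19 months against 3 weeks (adjusted p = 0.000107). Between 19 months and 5 months it was -0.15 ± 0.08 (adjusted p = 0.438). Against 403 to 436 CPM in TH, 5 months SYN overlapped (log2 fold change -0.06 ± 0.07, adjusted p = 0.501).

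Dnm2, the dynamin expressed in most tissues (chr9:21424908-21507759, plus strand), had 45.1, 33.7, 40.6 and 46.3 CPM at 3 weeks SYN, 30.5, 37.9, 26.4 and 37.6 CPM at 5 months SYN and 36.4, 28.7, 30.3 and 29.3 CPM at 19 months SYN. The ranges of all ages overlapped. Its log2 fold change was -0.40 ± 0.13 at 19 months against 3 weeks (adjusted p = 0.0240), a call lost without any 1 of 5 libraries: 3 weeks replicates 1 and 4 and 19 months replicates 2, 3 and 4, with adjusted p of 0.0559, 0.0891, 0.0808, 0.0626 and 0.0733. At 5 months against 3 weeks it was -0.30 ± 0.13 (adjusted p = 0.0792), and against TH, where it reached 33.9 to 49.1 CPM, it was -0.32 ± 0.14 (adjusted p = 0.0630). The fold against TH passed the threshold when 5 months SYN replicate 4 or 5 months TH replicate 4 was left out (adjusted p = 0.0243 and 0.0143), and in the DESeq2 test of all 8 libraries (adjusted p = 0.0259).

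Dnm3, a dynamin of brain and testis (chr1:161982453-162478034, minus strand), was lower in synaptosomes than in homogenate. It had 109, 99.6, 110 and 104 CPM in 5 months SYN, against 140, 148, 148 and 159 CPM in 5 months TH, with no overlap. The log2 fold change was -0.48 ± 0.07 (adjusted p = 4.97e-05). With age its level held no called difference: log2 fold changes were 0.13 ± 0.08 at 5 months and 0.03 ± 0.08 at 19 months against 3 weeks, where it had 89.7 to 100 CPM.

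As a share of the summed dynamins per kilobase, Dnm3 made up 4.99% ± 0.209 in 5 months SYN and 6.50% ± 0.535 in 5 months TH (SD, n = 4 each). Over age it made up 3.65% ± 0.241 at 3 weeks, 4.99% ± 0.209 at 5 months and 5.14% ± 0.460 at 19 months. The libraries of 5 months and 19 months each lay above all those of 3 weeks. Dnm1 held 87.8% ± 1.39 in 5 months SYN and 85.2% ± 0.806 in 5 months TH, again without overlap. Each of these 4 differences reached p = 0.0286 in a two-sided exact permutation test, the smallest p that 4 against 4 libraries allow. After adjustment over the 16 share tests it was 0.0914, so 0 of the 16 tests passed the threshold. With that smallest p, a share could pass only if most of the 16 tests reached it, so the lack of calls does not show equal shares.

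**Figure D2:**
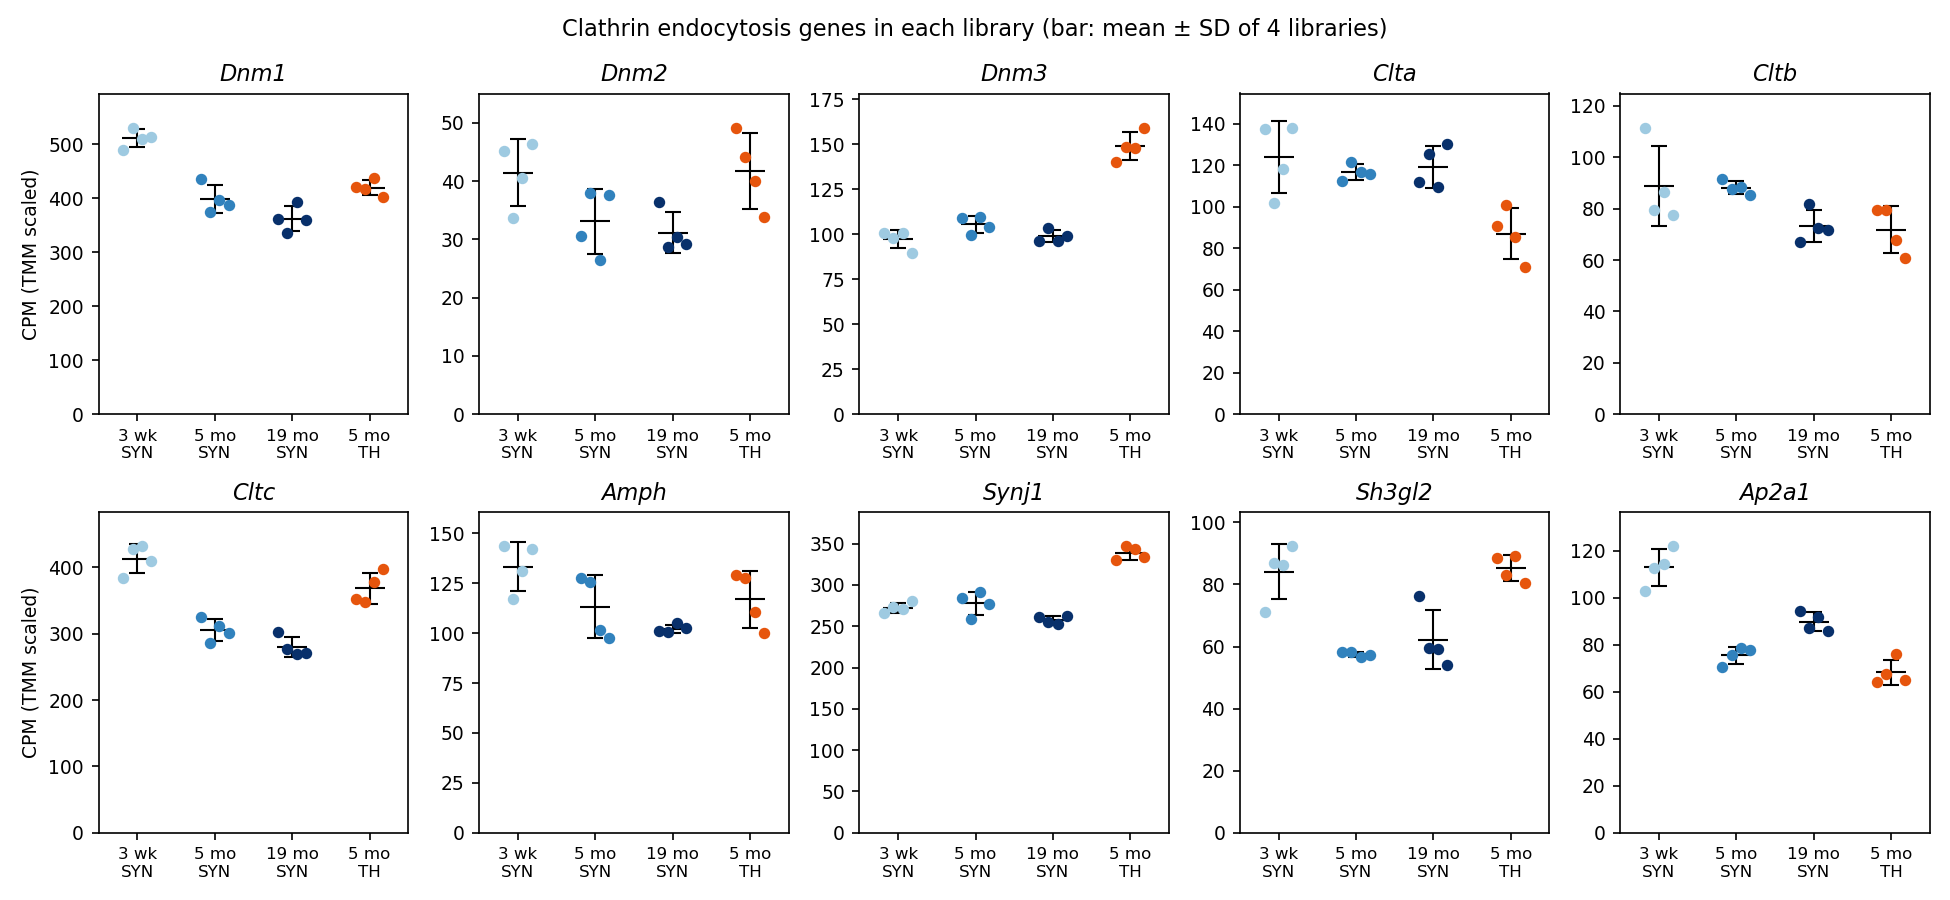
Level of each member in every library, in TMM-scaled CPM from 0 on each vertical axis. Points are libraries, bars the mean ± SD of 4. Dnm1 and Cltc at 3 weeks lie above all their libraries of 5 and 19 months, and Dnm3 and Synj1 in TH lie above all SYN libraries.

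The dynamins also differed between ages in which exons were joined. The authors' deposited LeafCutter tables, which give for each cluster of overlapping introns an adjusted p and the fraction of use of each intron at 2 ages, listed clusters for 9 of the 10 members and none for Sh3gl2. In them 1 of 17 member clusters was called at an adjusted p under 0.05 between 19 months and 5 months (0.768% of all clusters), 2 of 18 between 5 months and 3 weeks (6.61% of all clusters) and 3 of 17 between 19 months and 3 weeks (4.81% of all clusters). These calls were in Dnm1, Dnm2, Dnm3 and Cltb. Inclusion of an exon was taken as the mean use of its 2 flanking introns over that mean plus the use of the intron that skips it. The tables give no read coverage, so the depth behind these values is unknown and no interval can be given, and splicing of TH was not analysed here.

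The dynamin exons are shown with the 20 bases of the flanking exons on each side, in capitals for the exon and 5′ to 3′ on the coding strand, read from GENCODE M21 transcripts on GRCm38; the sequences show what enters or leaves the mRNA. The Dnm3 exon lies at chr1:162273620-162273649, the Dnm2 exon at chr9:21487047-21487076 and the Dnm1 exon at chr2:32310451-32310487, of which the 19 coding bases ahead of a stop codon are given.
Dnm3 with the exon: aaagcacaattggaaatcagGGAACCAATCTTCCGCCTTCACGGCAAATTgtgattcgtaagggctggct
Dnm3 without it: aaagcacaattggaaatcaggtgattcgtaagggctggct
Dnm2 with the exon: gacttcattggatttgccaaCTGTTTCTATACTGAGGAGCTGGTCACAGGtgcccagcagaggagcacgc
Dnm2 without it: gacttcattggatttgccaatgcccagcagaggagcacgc
Dnm1 with the exon: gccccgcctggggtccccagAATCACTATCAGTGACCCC
Dnm1 without it: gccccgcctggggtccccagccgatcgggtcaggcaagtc
The Dnm3 and Dnm2 exons are each 30 bases, a multiple of 3, whereas the Dnm1 exon is 37 bases and not a multiple of 3.

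Per the authors' deposited table, inclusion of the Dnm3 exon was 1.79% at 19 months SYN, against 15.7% at 3 weeks SYN (cluster adjusted p = 0.000387). Direct joining of the flanking exons took 96.5% of the cluster's use at 19 months and 72.9% at 3 weeks. The other deposited tables gave inclusion of 1.76% at 19 months and 8.41% at 5 months (adjusted p = 0.185), and 7.59% at 5 months and 15.8% at 3 weeks (adjusted p = 0.126). The value at 5 months lay between those of the other ages in both tables, without a call. The boundary of this exon on its 3′ side is in no annotated transcript: Dnm3-209 holds a longer form, and the 2 bases after the 30 are GT. The authors' deposited DIEGO table, a second splicing test per junction, listed the junction downstream of this exon (chr1:162231768-162273619) with q = 0.0489 between 19 months and 3 weeks. This was the smallest q in that table but not unique to the junction, since a Dnm2 intron had the same value. Of all junctions there, 0.69% had a q under 0.05. In the same DIEGO table the junction on the other side of the exon had q = 0.0674 and the skipping junction q = 1.

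Inclusion of the Dnm2 exon, coding in the transcript Dnm2-208, was 17.0% at 5 months SYN and 5.00% at 3 weeks SYN per the authors' deposited table (cluster adjusted p = 0.0281). This cluster was not tested in the tables with 19 months, where LeafCutter reported too few valid samples. In the authors' deposited DIEGO tables, 1 of 214 member junctions between 5 months and 3 weeks and 2 of 212 between 19 months and 3 weeks had a q under 0.05 (1.48% and 0.69% of all junctions). Each count included a later Dnm2 intron (chr9:21489795-21494503), with q of 0.0464 and 0.0489. The junctions that flank or skip the Dnm2 exon itself did not pass between 5 months and 3 weeks. Their lowest q was 0.0656, for chr9:21487077-21489742. Between 19 months and 5 months, 0 of 204 member junctions and 0 of all 89750 junctions had a q under 0.05 in the deposited DIEGO table, and the smallest p of a member junction was 0.149.

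Inclusion of the Dnm1 exon was 42.1% at 5 months SYN and 32.3% at 3 weeks SYN in one deposited table (cluster adjusted p = 0.0481), and 43.9% at 19 months SYN and 32.3% at 3 weeks SYN in another (adjusted p = 0.00197). Between 19 months and 5 months it was 44.1% and 42.0% (adjusted p = 0.824). Joining straight to the last exon took 34.0% of the cluster's use at 19 months, against 44.4% at 3 weeks. A neighbouring junction (chr2:32309069-32312126) that also skips the exon, left out of the inclusion values, took 9.07% at 19 months and 10.8% at 3 weeks. A rarely used junction (chr2:32309635-32312126, at most 1.01% of use) skips the exon to a site upstream of the usual start of the last exon. Measured instead against that junction, inclusion went the other way, at 93.3% at 5 months and 97.4% at 3 weeks, and 93.7% at 19 months and 96.5% at 3 weeks. The Dnm1 junctions of this cluster that the deposited DIEGO tables list had q = 1. With this exon the reading frame ends within it, and without it the frame runs on into the last exon, so the alternatives encode different C-terminal tails. In rat, the short tail is the variant known to dock the phosphatase calcineurin. By contrast, the mutually exclusive pair of exons in the middle of Dnm1 showed no called difference: the intron that joins the exon nearer the 3′ end took 68.6% of use at 19 months and 68.5% at 5 months (adjusted p = 0.986), and 68.5% at 19 months and 68.7% at 3 weeks (adjusted p = 0.982).

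**Figure D3:**
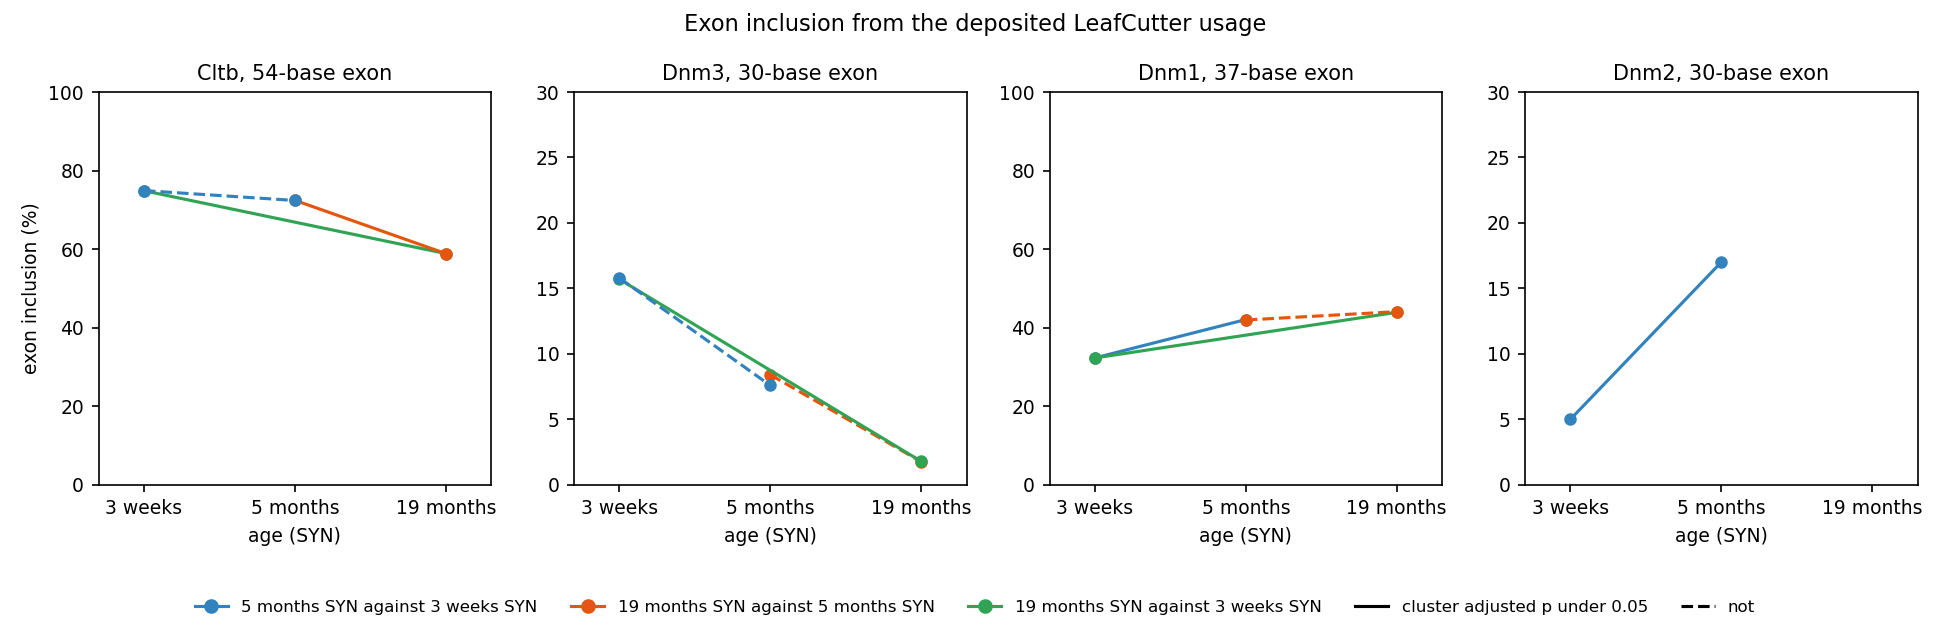
Inclusion (%) of 4 exons at 3 ages, from the authors' deposited LeafCutter usage; vertical axes run to 100% or 30%. Each line joins the 2 ages of one table, solid where the cluster's adjusted p was under 0.05. The Cltb exon ends at 58.9% and the Dnm3 exon at under 2% at 19 months, while the Dnm1 exon is higher at 5 and 19 months than at 3 weeks.

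The clathrin light chains, which sit on the heavy chain and regulate the lattice, were higher in synaptosomes than in homogenate, while the heavy chain was lower. Clta (chr4:44004452-44032846, plus strand) had 113, 122, 117 and 116 CPM in 5 months SYN, against 90.8, 101, 85.4 and 71.1 CPM in 5 months TH. The log2 fold change was 0.43 ± 0.10 (1.35-fold, adjusted p = 0.00156). Cltb (chr13:54592401-54611344, minus strand) had 91.6, 87.7, 88.3 and 85.2 CPM in 5 months SYN and 79.4, 79.5, 67.9 and 60.7 CPM in 5 months TH. Its log2 fold change was 0.31 ± 0.09 (1.24-fold, adjusted p = 0.0121). For both genes all SYN libraries lay above all TH libraries.

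Cltc, the clathrin heavy chain (chr11:86694351-86757565, minus strand), had 325, 286, 312 and 302 CPM in 5 months SYN, against 352, 348, 378 and 397 CPM in 5 months TH, without overlap. Its log2 fold change was -0.26 ± 0.07 (adjusted p = 0.00847). With age it also fell: it had 384, 428, 432 and 409 CPM at 3 weeks SYN, and 302, 277, 269 and 271 CPM at 19 months SYN. All libraries of 5 and 19 months lay under those of 3 weeks. Log2 fold changes were -0.42 ± 0.08 at 5 months (adjusted p = 0.000496) and -0.56 ± 0.08 at 19 months (adjusted p = 1.90e-05), both against 3 weeks, and -0.14 ± 0.08 at 19 months against 5 months (adjusted p = 0.468).

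The summed light chains over the heavy chain, per kilobase, gave a ratio of 2.31 ± 0.175 in 5 months SYN and 1.47 ± 0.285 in 5 months TH (SD, n = 4 each). Over the SYN ages it was 1.802 ± 0.326 at 3 weeks, 2.31 ± 0.175 at 5 months and 2.48 ± 0.272 at 19 months. This ratio was computed after the levels were seen and carries no test. The SYN and TH libraries of 5 months did not overlap in it, and those of 3 weeks, at 1.45 to 2.19, overlapped with both later ages.

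Neither light chain had a called difference of level with age. Clta had 137, 102, 118 and 138 CPM at 3 weeks SYN and 112, 125, 109 and 130 CPM at 19 months SYN, with a log2 fold change of -0.05 ± 0.10 at 19 months against 3 weeks. Cltb had 111, 79.6, 86.3 and 77.7 CPM at 3 weeks SYN and 67.1, 81.8, 72.6 and 71.8 CPM at 19 months SYN. Its log2 fold change was -0.28 ± 0.10 at 19 months against 5 months (adjusted p = 0.222), where the libraries did not overlap, and -0.27 ± 0.10 at 19 months against 3 weeks (adjusted p = 0.0690), where replicate 1 of 3 weeks stood highest. Without that library 19 months against 3 weeks gave -0.13 (adjusted p = 0.346), and without 3 weeks replicate 4 it gave -0.32 and passed the threshold (adjusted p = 0.0390). Clta made up 81.4% ± 1.28 of the light chains per kilobase at 19 months SYN and 78.1% ± 0.907 at 5 months SYN, without overlap (two-sided exact permutation p = 0.0286, adjusted p = 0.0914).

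**Figure D4:**
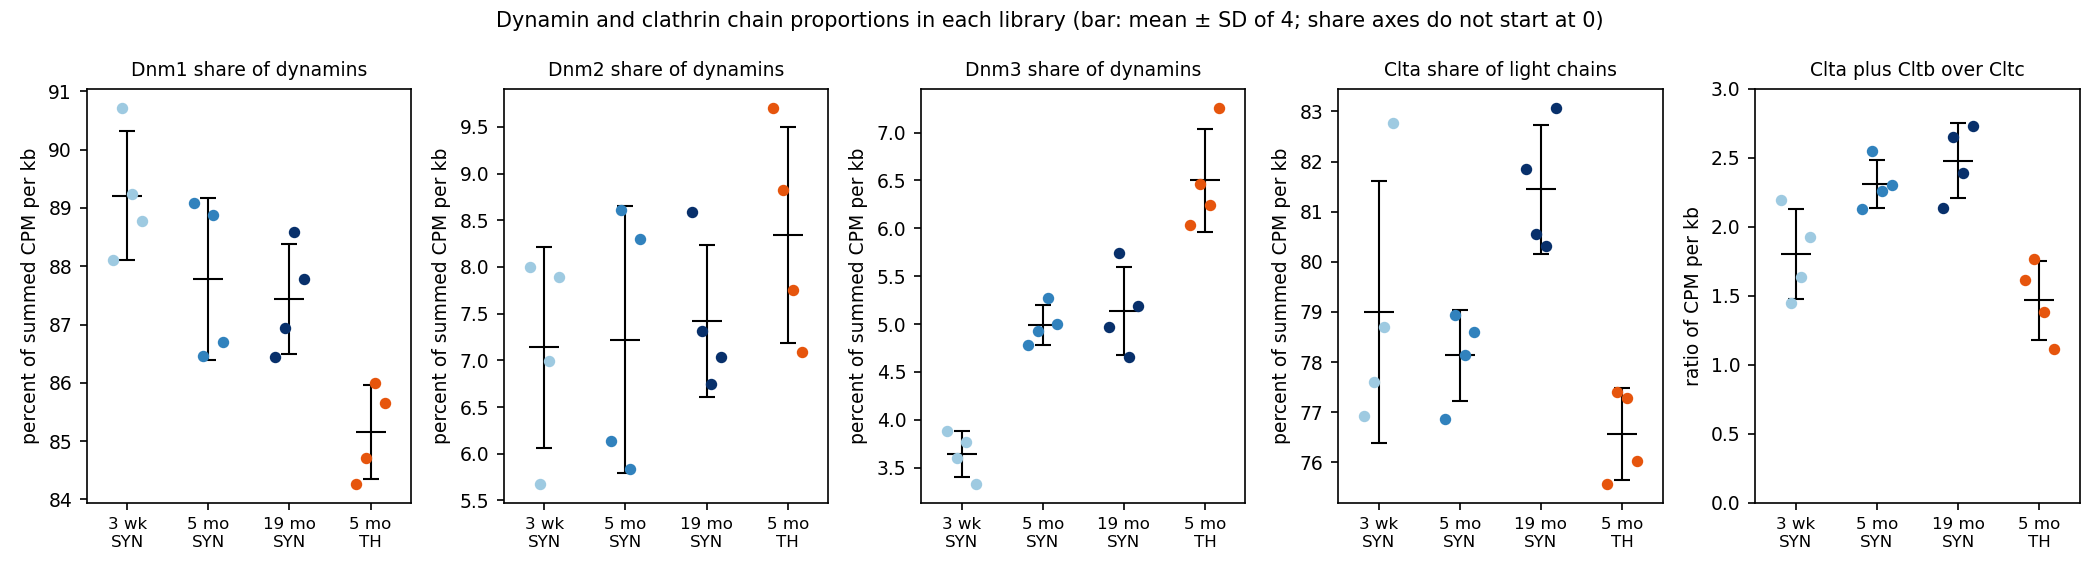
Dynamin and light chain shares (% of summed CPM per kb) and the light-to-heavy chain ratio in each library, with mean ± SD of 4. Share axes do not start at 0. The Dnm3 share is lowest at 3 weeks (3.65%) and highest in TH (6.50%), and the ratio is higher in 5 months SYN than in 5 months TH.

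Each light chain gene has a 54-base exon that is known as a neuron-enriched insertion of the protein, and Clta has a further exon of 36 bases. The Cltb exon (chr13:54597026-54597079, minus strand, coding in Cltb-201) and the Clta exon (chr4:44030215-44030268, plus strand) are shown in capitals between 20 bases of the flanking exons, 5′ to 3′, because the Cltb exon carried a called difference and the Clta exon is its counterpart.
Cltb with the exon: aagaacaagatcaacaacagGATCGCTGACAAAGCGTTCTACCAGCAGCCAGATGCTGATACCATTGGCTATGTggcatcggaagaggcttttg
Cltb without it: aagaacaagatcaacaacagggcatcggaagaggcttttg
Clta with the exon: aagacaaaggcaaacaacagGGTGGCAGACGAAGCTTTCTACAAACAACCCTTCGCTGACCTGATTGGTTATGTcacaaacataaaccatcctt
The 54-base exons are identical at 37 of 54 positions (68.5%), and both keep the reading frame. The bases shown after the Clta exon are the start of its 36-base exon, not of the last exon.

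The Cltb exon was less included in the oldest synaptosomes. Per the authors' deposited tables, inclusion was 58.9% at 19 months SYN and 72.4% at 5 months SYN (cluster adjusted p = 0.0185), and 58.9% at 19 months SYN and 74.9% at 3 weeks SYN (adjusted p = 0.000473). The intron that skips it took 25.9% of the cluster's use at 19 months, against 15.99% at 5 months and 14.4% at 3 weeks. Between 5 months and 3 weeks, inclusion was 72.4% and 74.9% (adjusted p = 0.588). This was the only member cluster called between 19 months and 5 months. The authors' deposited DIEGO tables gave q = 1 for all 3 Cltb introns in both comparisons with 19 months.

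The Clta cluster was not called in any of the 3 tables (adjusted p from 0.444 to 0.835). From the exon upstream of both insertions, 50.6% of use went to the 54-base exon at 19 months and 58.0% at 5 months, 7.25% and 6.98% to the 36-base exon, and 42.1% and 35.03% to the last exon. In Cltc, a 21-base exon coding in Cltc-203 had inclusion of 23.7% at 19 months and 27.1% at 3 weeks (adjusted p = 0.484).

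Sh3gl2, which encodes endophilin A1, a presynaptic BAR-domain protein (chr4:85205126-85639195, plus strand), had the lowest log2 fold change of the members between fractions. It had 58.3, 58.1, 56.6 and 57.1 CPM in 5 months SYN, against 88.7, 83.1, 89.0 and 80.4 CPM in 5 months TH, and the groups did not overlap. The log2 fold change was -0.56 ± 0.07 (adjusted p = 1.91e-05). It had 71.3, 86.9, 86.3 and 92.3 CPM at 3 weeks SYN and 76.2, 59.5, 59.1 and 54.2 CPM at 19 months SYN. Log2 fold changes against 3 weeks were -0.53 ± 0.10 at 5 months (adjusted p = 0.000382) and -0.43 ± 0.10 at 19 months (adjusted p = 0.00346). At 19 months the highest library was replicate 1, one of the libraries that stood apart, and it overlapped with the 3 weeks libraries.

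Synj1, the synaptojanin 1 gene (chr16:90936092-91011308, minus strand), had 284, 258, 291 and 277 CPM in 5 months SYN, against 330, 347, 344 and 334 CPM in 5 months TH. All SYN libraries were lower, with a log2 fold change of -0.27 ± 0.07 (adjusted p = 0.00387). Its SYN level had no called difference with age: the log2 fold changes were 0.04 ± 0.08 at 5 months and -0.07 ± 0.08 at 19 months against 3 weeks. At 3 weeks it had 266 to 280 CPM and at 19 months 252 to 262 CPM, so those ages did not overlap although the difference was not called (adjusted p = 0.566). None of its 4 clusters was called. The lowest adjusted p, 0.101 between 19 months and 5 months, belonged to the cluster of a 24-base exon with inclusion of 98.9% at 19 months and 92.2% at 5 months.

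Amph, encoding amphiphysin (chr13:18948205-19150921, plus strand), had 143, 117, 131 and 142 CPM at 3 weeks SYN, 128, 126, 102 and 97.8 CPM at 5 months SYN and 101, 100.5, 105 and 103 CPM at 19 months SYN. The libraries of 19 months lay under all those of 3 weeks, and the 5 months libraries fell into a higher and a lower pair. The log2 fold change was -0.38 ± 0.10 at 19 months against 3 weeks (adjusted p = 0.00592), and -0.22 ± 0.10 at 5 months against 3 weeks (adjusted p = 0.0959). The TH libraries, at 100.02 to 129 CPM, overlapped with 5 months SYN (log2 fold change -0.04 ± 0.11, adjusted p = 0.808).

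Ap2a1, the alpha 1 subunit of AP2 (chr7:44900373-44929496, minus strand), had 103, 113, 114 and 122 CPM at 3 weeks SYN, 70.5, 75.6, 78.4 and 77.5 CPM at 5 months SYN and 94.4, 87.1, 91.7 and 85.7 CPM at 19 months SYN. No 2 ages overlapped: 3 weeks was highest, and 19 months lay above 5 months. Log2 fold changes were -0.56 ± 0.09 at 5 months (adjusted p = 2.38e-05) and -0.33 ± 0.09 at 19 months (adjusted p = 0.00779), both against 3 weeks, and 0.24 ± 0.09 at 19 months against 5 months (adjusted p = 0.207). Against TH, with 64.3 to 76.0 CPM, the 5 months SYN difference was 0.16 ± 0.08 (adjusted p = 0.122). A 66-base coding exon of Ap2a1 had inclusion of 64.7% at 19 months and 78.9% at 3 weeks in the authors' deposited table, and its cluster was not called (adjusted p = 0.0901). Annotated exons of Ap2a1 share 720 bases with the gene Fuz on the opposite strand. Those of Dnm3, Dnm2 and Synj1 share 397, 207 and 60 bases with opposite-strand genes. The kit keeps strand, but the strand setting of the counting is not given in the sources used here, so reads there may belong to either gene.

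The other AP2 subunits gave values beside Ap2a1. These subunits were picked as its complex partners after their values were seen. Ap2a2, the alternative alpha subunit, was higher in 5 months SYN than in 5 months TH (log2 fold change 0.31, adjusted p = 0.00208), and lower at 5 months (-0.26, adjusted p = 0.0229) and 19 months (-0.25, adjusted p = 0.0343) than at 3 weeks. Ap2b1, the beta subunit, was lower at 5 months (-0.32, adjusted p = 0.00436) and 19 months (-0.45, adjusted p = 0.000229) than at 3 weeks. Ap2m1, the cargo-binding mu subunit, went the other way, at 0.60 for 19 months against 3 weeks (adjusted p = 0.00982), with 27.2 to 31.8 CPM at 19 months SYN and 14.8 to 30.9 CPM at 3 weeks SYN, which overlapped. Ap2s1, the small sigma subunit, was not called in any comparison.

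Of 45 further endocytosis genes, 15 were higher and 13 lower in 5 months SYN than in 5 months TH, against 24.5% and 25.6% of all genes, with a median log2 fold change of 0.00. Among early coat proteins, Epn1, which encodes the membrane-bending adaptor epsin 1, had a log2 fold change of 1.47 ± 0.12 (adjusted p = 1.77e-07). Arrb1, encoding the receptor adaptor beta-arrestin 1, had 1.17 ± 0.07 (adjusted p = 5.60e-09), and Ston2, encoding the synaptotagmin adaptor stonin 2, had 1.01 ± 0.14 (adjusted p = 4.01e-05). Fnbp1l, encoding an F-BAR protein that links membranes to actin, was lower (-1.16 ± 0.11, adjusted p = 9.00e-07). These genes were named for having the largest absolute folds among the called ones of the 45, so folds beyond those of the members partly follow from that choice. The log2 fold changes of the 10 members between fractions ran from -0.56 to 0.43.

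With age, 8 of the 45 were higher and 7 lower at 5 months than at 3 weeks, against 13.3% and 11.3% of all genes. Sh3gl3, an endophilin A gene related to Sh3gl2, was lower (-1.39 ± 0.15, adjusted p = 9.38e-08), as were Sh3glb1, an endophilin B gene (-0.58 ± 0.11, adjusted p = 0.000247), and Picalm, encoding a clathrin assembly protein (-0.54 ± 0.10, adjusted p = 0.000351). Fnbp1, an F-BAR gene, was higher (0.51 ± 0.09, adjusted p = 0.000163). At 19 months against 3 weeks, 6 were higher and 11 lower, where 19.4% of all genes were called. These 17 calls dropped to 11 without 3 weeks replicate 3 and to 11 without 19 months replicate 2. Over all genes, the 2982 calls dropped to 2110 and 2275 in these fits. Sh3gl3 was again lowest (-1.37 ± 0.15, adjusted p = 1.65e-07), followed by Sh3gl1, another endophilin A gene (-0.72 ± 0.20, adjusted p = 0.0126), and by Hip1r, which links clathrin to actin (-0.48 ± 0.10, adjusted p = 0.000772). Between 19 months and 5 months, 0 of the 45 were called by edgeR over the 12 SYN libraries. A call of 1 appeared with DESeq2, with no filter, with the replicate block and with only the 8 libraries compared. Calls over all genes rose as well, from 46 of 15344 to 312 of 15344, 292 of 27220, 264 of 15344 and 320 of 14817 in that order.

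**Figure D5:**
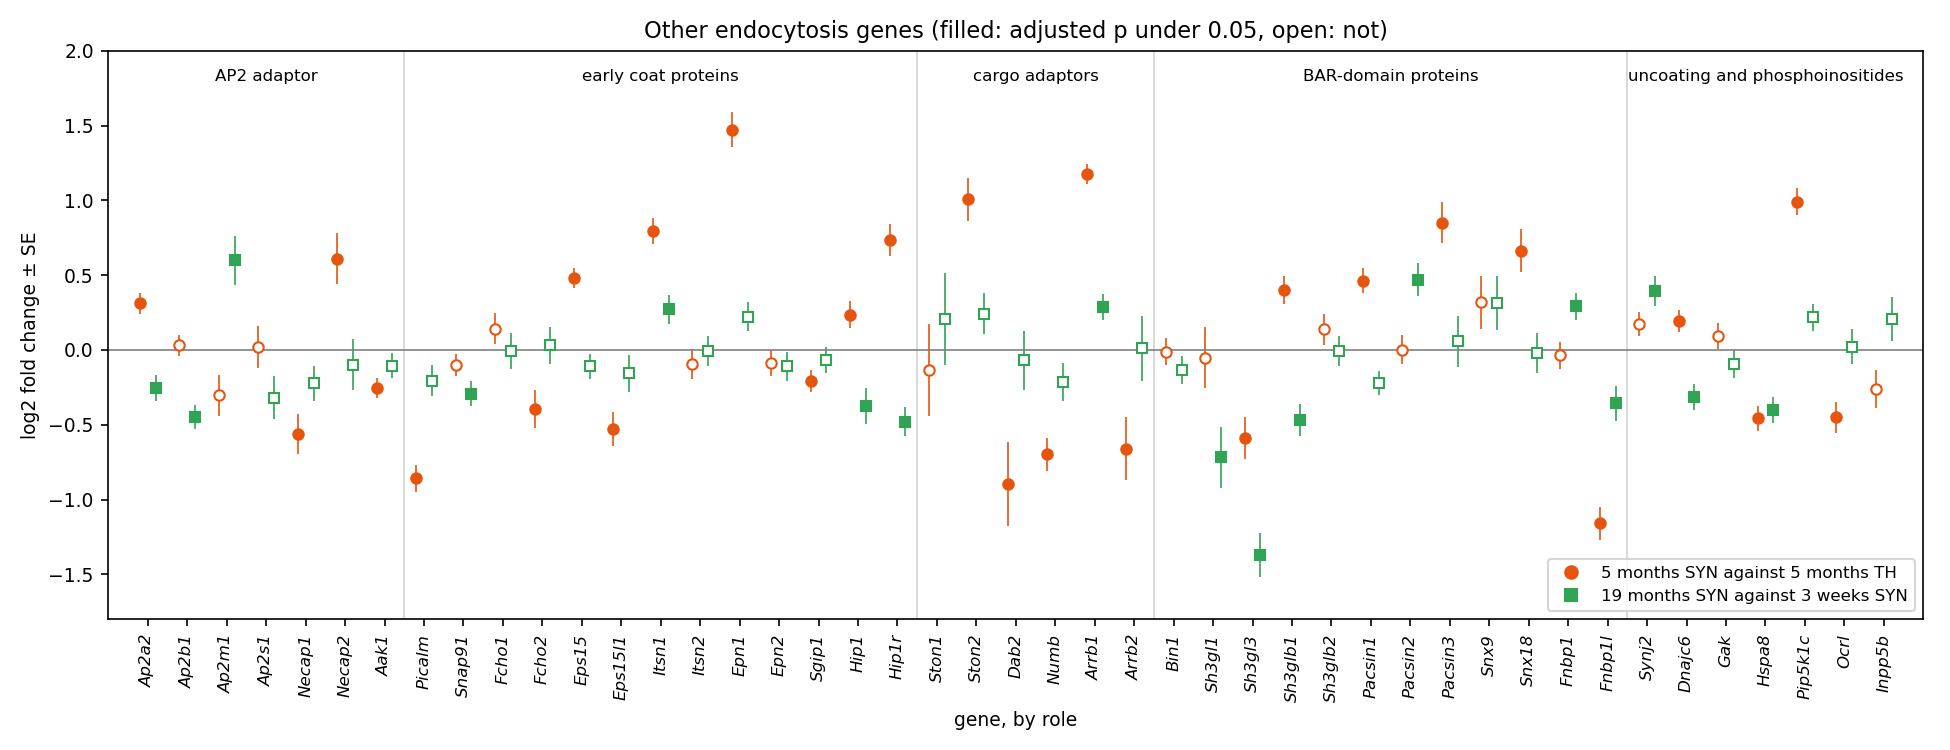
Log2 fold change ± SE of 45 further endocytosis genes by role, for 5 months SYN against 5 months TH (circles) and 19 months SYN against 3 weeks SYN (squares). Filled points passed an adjusted p under 0.05. Epn1 (1.47) and Arrb1 (1.17) are the highest circles and Sh3gl3 (-1.37) the lowest square.

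Across the 16 libraries, the gene whose log2 CPM followed each member most closely, out of 10278 genes compared, was as follows; the libraries share fraction and age, so these are descriptions. For Dnm1 it was Ngef (Pearson r = 0.980), for Dnm2 Lcmt1 (0.885) and for Dnm3 Mysm1 (0.978). For Clta it was Atp5k (0.938), for Cltb Sox12 (0.893) and for Cltc Mdh1 (0.960). For Amph it was Tnik (0.891), for Synj1 Sfswap (0.968), for Sh3gl2 Prkar1b (0.962) and for Ap2a1 Fxyd6 (0.978). Among the members themselves, Dnm3 and Synj1 were the closest pair (r = 0.929).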

How the data were processed

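The gene values are integer counts per gene for 16 libraries, as deposited by the authors. Per the submitters' processing notes, reads were handled with bcl2fastq 2.20.0.422, cutadapt 1.18, Trimmomatic 0.38 and featureCounts of Subread on GRCm38.p6. The aligner and strand setting were not given. The authors' deposited LeafCutter tables hold a p-value for each cluster of introns and, for each intron, the fraction of use at both ages, and their deposited DIEGO tables a p-value and q-value per junction. Their columns for young, adult and old were read as 3 weeks, 5 months and 19 months.

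Genes were filtered with filterByExpr, TMM-scaled and fitted with edgeR 4.0.16 (robust quasi-likelihood, R 4.3.3), on 8 libraries for SYN against TH and on 12 for the ages. Calls needed a p under 0.05 after Benjamini-Hochberg adjustment over all genes. CPM per library use 1 TMM scaling of the 16 libraries. Levels per kb divide by the deposited gene length. Shares were compared with scipy 1.17.1 by exact permutation over 70 groupings. Exons and names come from GENCODE M21. The alternatives included DESeq2 1.42.0, other scalings and filters, a replicate block and each library left out. Tests were checked on simulated data. No 2 libraries of a group were copies, and 0 count columns belonged to no sample.

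The 10 members and the lists of further endocytosis genes and markers were chosen with earlier results of these data known. The text names the members, the called list genes with the 4 largest absolute log2 fold changes per comparison at a mean of at least 5 CPM, the most alike gene of each member and every called member cluster. Leaving out both libraries that stand apart was added after the data were seen.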

Additional observations from a re-analysis of the deposited data

How the results depend on the processing

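The counts of called members stayed within 1.5 times the reported count under every alternative. They ran from 6 to 7 for 5 months SYN against 5 months TH, 4 to 6 for 5 months SYN against 3 weeks SYN and 5 to 6 for 19 months SYN against 3 weeks SYN, and were 0 for 19 months SYN against 5 months SYN. Over all genes, the calls ran from 7612 to 9578, 2694 to 4127, 2110 to 3394 and 0 to 320 in the same order. Called members that held their call and direction under every alternative were 5 of 6 (all but Cltb), 4 of 4 and 5 of 6 (all but Dnm2). The share of all called genes that held theirs under every alternative was not counted. With both libraries that stand apart left out, Dnm2 was also called lower at 5 months than at 3 weeks (-0.37, adjusted p = 0.0453).

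Called splicing clusters fell to 0 (19 months against 5 months) and 0 (5 months against 3 weeks) at an adjusted p under 0.01, and to 0 and 1 at an adjusted p under 0.05 with a usage change of at least 0.1; the 3 of 19 months against 3 weeks held under both. The fewer calls follow from the stricter rules, and the share of all clusters passing these rules was not counted. The Cltb cluster of 19 months against 5 months lay just under the usage rule, with a largest change of 0.0990.

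Uncalled log2 fold changes near 0 changed sign when 1 library was left out: Amph from -0.11 to 0.018 (SYN against TH), Cltb from -0.049 to 0.14 (5 months against 3 weeks), Clta from -0.025 to 0.060 and Sh3gl2 from -0.0064 to 0.16 (19 months against 5 months), and Dnm3 from -0.0013 to 0.055 and Clta from -0.12 to 0.015 (19 months against 3 weeks). Cltb at 5 months against 3 weeks was also below 0 with no filter (-0.0074) and with all 16 libraries in the fit (-0.0077), and Sh3gl2 at 19 months against 5 months without both libraries that stand apart (-0.0036). Uncalled shares did the same, in percentage points: at 19 months against 5 months, Dnm1 from -0.78 to 0.088, Dnm2 from -0.26 to 0.66 and Dnm3 from -0.059 to 0.30; at 19 months against 3 weeks, Dnm2 from -0.21 to 0.57; at 5 months against 3 weeks, Dnm2 from -0.41 to 0.54 and the Clta share from -1.56 to 0.39. With raw counts the Dnm2 share differed by -0.19 (5 months against 3 weeks) and -0.051 (19 months against 3 weeks). The cause was not tested.

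Same-numbered SYN and TH libraries deviated together only weakly (r of 0.018 to 0.144). The column headers of the count table give SYN and TH libraries the same 4 numbers, which may mark shared preparations, but the labels do not say so. Between ages the headers share no numbers, so there the replicate block joins libraries by replicate number only and does not check a pairing. With the replicate block the called members were 6, 4, 0 and 6, and 0 share tests passed. Over all genes that fit called 8554 of 17374, 4070 of 15344, 264 of 15344 and 3394 of 15344. With 4 pairs, or 3 against 4 libraries, the exact share tests cannot go below p = 0.125 and 0.0571. Counts of 319 or more per library limit the members little, while the depth of the splicing tables is unknown.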
